A study of Mus musculus and Homo sapiens with 22 samples.

Results

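The m6A sites described here lie in protein-coding sequence, inside long exons that have another exon on either side. They were taken from the list of m6A sites predicted in mouse embryonic stem cells (mESCs) of wild type (WT) by 3 criteria. The site lay in the coding sequence (CDS) of the longest coding transcript of its gene, its exon was neither the first nor the last, and that exon was at least 400 nt long. Of the 25456 sites of the list, 4367 (17.2%) met these criteria, in 1476 exons of 1254 genes. They made up 36.6% of the 11946 sites placed in a CDS. For comparison, 4880 CDS sites lay in last exons, 1609 in internal exons shorter than 400 nt, 731 in first exons and 359 in transcripts of a single exon.

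The underlying assay is miCLIP2. UV light fixes an antibody against m6A to the RNA, and reverse transcription, which halts at the crosslink, marks the modified nucleotide. A machine learning classifier, m6Aboost, then scored the signal peaks that lay at an A. The WT mESC list pools 3 replicates, the first of which had 2 technical replicates, and holds one score per site, so neither a spread between replicates nor a read depth was at hand for a site. Lists of purchased mouse heart RNA (1 library, 1 µg) and of the human kidney line HEK293T (4 replicates) served for comparison. RNA-seq gene counts were used for WT mESCs and for mESCs in which Mettl3 was knocked out (Mettl3 KO), with 3 libraries each and 22746733 to 27254245 counts in genes per library. Both lines were grown in serum with LIF and were untreated, and both came from an earlier study, with no word on how many clones they stand for. The study calls its mESC miCLIP2 replicates biological and the RNA-seq matched to these samples. The labels do not say which cultures the libraries came from, so p-values measure the spread between these libraries.

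m6A is placed on nascent mRNA by a methyltransferase complex with METTL3 as its catalytic subunit, at adenosines in the motif DRACH (D is A, G or U, R is A or G, H is A, C or U). It is known to be frequent in 3′ UTRs, around stop codons and in unusually long internal exons, and sparse close to the junctions between exons, where spliced mRNA carries exon junction complexes. Reader proteins of the YTH family bind the modified base and act on splicing, translation and decay of the mRNA.

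Of the 10 genes with the most sites, all but Fat1 are shown by the 21 nt around their highest-scoring site, which is the stretch of sequence the classifier read. The sequences are from GRCm38 in the direction of the transcript, written with T for U, and the 5-nt motif with the modified A in its middle is in capitals.
Kmt2d, chr15:98843903-98843923, minus strand: aggtgaacGGACAggtggtac
Tnrc6c, chr11:117723118-117723138, plus strand: ccaggtacAAACTggggggag
Mki67, chr7:135699264-135699284, minus strand: tgactcagTGACTgttgagga
Son, chr16:91656536-91656556, plus strand: aataccatGGACTcccagatg
Cenpf, chr1:189652652-189652672, minus strand: tcaagtacAAACTcttgaact
Ahdc1, chr4:133063799-133063819, plus strand: gctggcagAAACTgtggtttc
Spen, chr4:141474568-141474588, minus strand: gagccagaGAACTtctccgct
Mga, chr2:119947993-119948013, plus strand: agttctaaAAACTgaggatgg
Tcf20, chr15:82851700-82851720, minus strand: cagtgaaaAGACTgtttcaga
These windows had scores between 0.882 (Spen) and 0.951 (Mki67), and all of them lay at least 197 nt from the nearer end of their exon. The motif ended in T in all of them but Kmt2d, and the base before the A was A in Tnrc6c, Cenpf, Ahdc1, Spen and Mga and G in the rest. All of these positions were also in the heart list.

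The sites were spread over many genes with a short list of heavily marked ones. A single site was found in 335 genes, 2 to 4 sites in 614, 5 to 9 in 247 and 10 or more in 58 genes, and these 58 genes held 17.9% of the sites. Kmt2d, a histone H3 lysine 4 methyltransferase, had the most, with 34 sites. It was followed by Tnrc6c (25 sites), a partner of Argonaute in miRNA-mediated silencing, and Mki67 (22), the proliferation marker Ki-67 that coats mitotic chromosomes. Son (20), a splicing cofactor of nuclear speckles, Ahdc1 (19), a DNA-binding protein with AT-hooks, and Cenpf (19), a kinetochore protein, came next. Spen (18), a repressor needed for X inactivation, Fat1 (18), a giant cadherin, Mga (17), a partner of MAX, and Tcf20 (17), a transcriptional coregulator, completed the first 10. In mESC terms, Klf4 held 8 sites, all in its exon of 985 nt, and Esrrb 2, in an exon of 410 nt. Both encode transcription factors of the pluripotency network. The other pluripotency markers checked here, Pou5f1, Sox2, Nanog, Zfp42, Dppa5a and Tdgf1, held none.

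Single exons could carry most of the sites of a gene. Exon 5 of 22 of Tnrc6c (chr11:117720950-117723550, 2601 nt) held all 25 of its sites, and 25 of its 77 DRACH motifs (32.5%) were sites. The first of them lay 105 nt from the 5′ end of the exon and the last 2454 nt from it. Exon 3 of Son (chr16:91654611-91660580, 5970 nt) held 20 sites at 19 of 130 DRACH motifs and 1 other motif. Exon 12 of Mki67 (chr7:135694232-135701067, 6836 nt) held 20 sites among 258 DRACH motifs (7.75%). Exon 6 of Ahdc1 (chr4:133061376-133066277, 4902 nt) held 19 sites among 85 motifs (22.4%). Exon 12 of Spen (chr4:141471370-141479389), the longest exon with a site at 8020 nt, held 17 sites, of which 16 were at its 179 DRACH motifs (8.94%). The next exons by number of sites were exon 2 of Tcf20 (17 sites in 5772 nt), exon 4 of Msh6 (16 in 2536 nt) and exon 20 of Ranbp2 (16 in 4663 nt), a nuclear pore protein. They were followed by exon 9 of Ankrd11 (15 in 6518 nt), a chromatin regulator, and exon 7 of Scaf1 (15 in 2667 nt), whose 41 DRACH motifs had the highest share of sites among these exons (34.1%). Across the first 5 exons 17 DRACH motifs lay within 100 nt of an exon end, and 1 of them, in Spen, was a site. The 17 include a motif at the first base of Son exon 3, which was read partly from the intron.

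**Figure D1:**
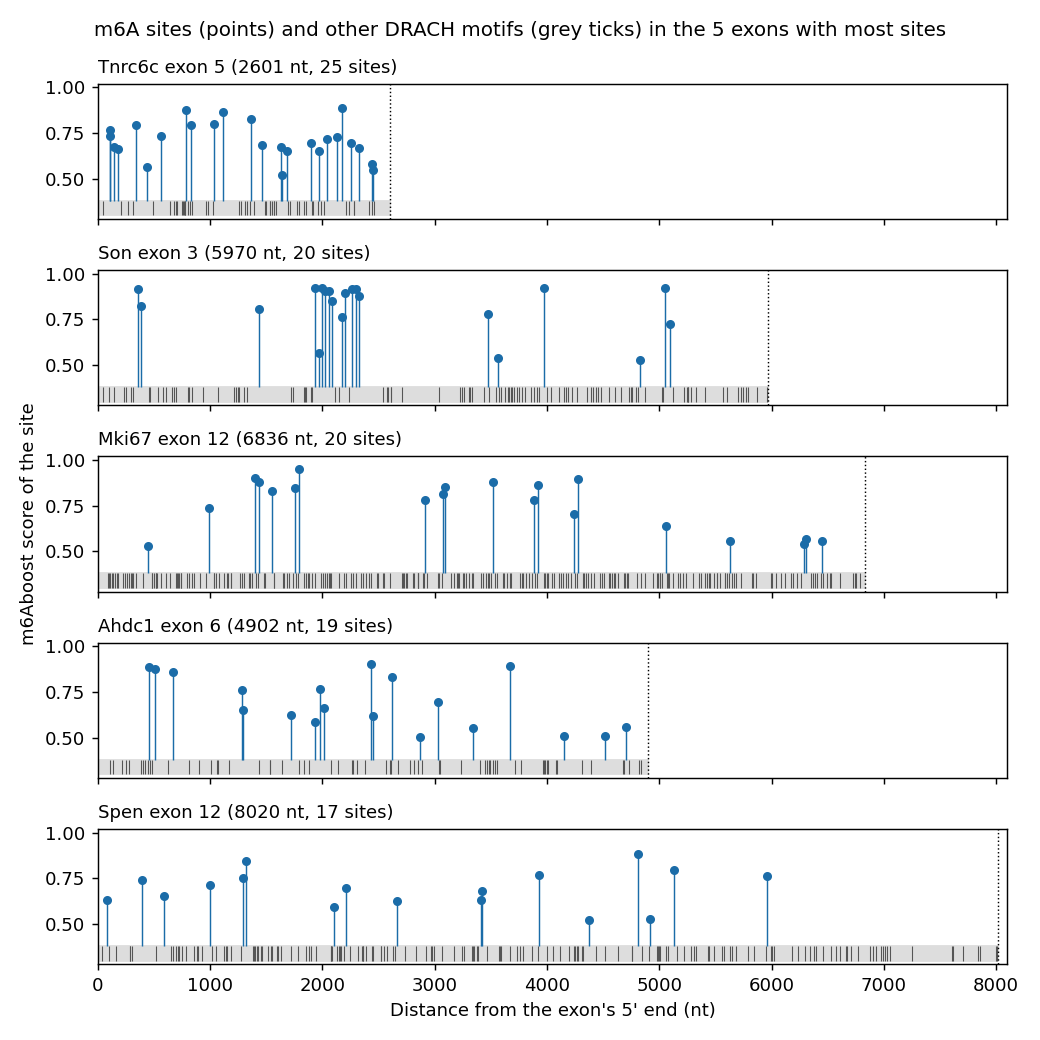
Positions of m6A sites (blue points, height is the m6Aboost score) and of DRACH motifs that were no site (grey ticks) along the 5 exons with the most sites, in nt from the exon's 5′ end. The dotted line marks the 3′ end. Sites covered most of Tnrc6c exon 5, while 11 of the 20 sites of Son exon 3 stood in one block between 1935 and 2325 nt.

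In Son exon 3 and in Mki67 exon 12, 11 of the 20 sites each had a window that differed from that of another site of the exon by at most 5 nt. In Son exon 3, 11 sites shared the last 6 nt of their window, and each of the 10 gaps between them was a multiple of 30 nt, with 8 gaps of exactly 30 nt. Their scores ran from 0.567 to 0.923, and all 11 positions were in the heart list too. The windows differed by a few bases only, as the 4 forms with the capitals on a DRACH motif and the 1 form without it show.
Son, 1935 nt from the exon start: aataccatGGACTcccagatg
Son, 1965 nt from the exon start: aacactatGGATTctcagatg
Son, 2025 nt from the exon start: agcaccatGGACTcccagatg
Son, 2175 nt from the exon start: agcagtatGGACTcccagatg
Son, 2325 nt from the exon start: agttccatGGACTcccagatg
The window with GGATT had the lowest score of the block (0.567). In Mki67 exon 12, the same pair of windows occurred at 4 places.
Mki67, first window: gcttccaaGAACTcttccaaa
Mki67, second window: tgactcagTGACTgttgagga
The second lay 37 nt after the first at all 4 places, and the steps from place to place were 360, 2130 and 351 nt. The 8 sites scored between 0.703 and 0.951. Kmt2d, Leo1, an elongation factor subunit, and Ddx21, a nucleolar helicase, each held a pair of sites with equal windows.
Kmt2d, exon 11, at 693 and 747 nt: ccacccgaGGACTctcctgcc
Leo1, exon 2, at 423 and 474 nt: aagctgcaGAACTctgacgac
Ddx21, exon 2, at 362 and 473 nt: tgaagaatGGACTctcccaac
The Kmt2d pair had equal scores of 0.652, while those of Leo1 were 0.742 and 0.636 and those of Ddx21 0.881 and 0.821. Equal windows thus did not always give equal scores. Among all 4367 sites, 27 in 8 genes shared their whole 21-nt window with another site of the set. One such pair lay in Kifc1 and Kifc5b, near-identical genes on chromosome 17 (scores 0.798 and 0.800). The authors kept only reads that mapped to one place, so at near-identical copies the number of separate sites is uncertain.

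The question of where in a long exon the sites lay was answered with the DRACH motifs of the same exons as the denominator. Motifs were counted in the coding part of internal exons of the 15731 genes that passed a filter on RNA-seq counts. In these genes 3426 long internal coding exons were annotated, and 1475 of them (43.1%) held a site. Of the 66490 DRACH motifs in long internal exons, 4118 were sites, a share of 6.19% (95% Wilson interval 6.01 to 6.38). In internal exons under 400 nt, 1523 of 338381 motifs were sites, or 0.450% (0.428 to 0.473). The share was thus 13.8 times higher in long exons, a difference of 5.74 percentage points (Newcombe interval 5.56 to 5.93). All intervals cover counting error only, and no test was made, because motifs of one gene are not independent replicates. The remaining 249 of the 4367 sites were 246 outside DRACH and 3 in genes below the filter. Around the length limit, 79 of 1723 motifs (4.59%) were sites in exons of 380 to 399 nt and 56 of 1378 (4.06%) in exons of 400 to 419 nt.

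Both kinds of exon also differed within genes. Of 1551 genes with at least 10 DRACH motifs in each kind, 843 had the higher share in long exons, 30 had the higher share in shorter ones and 678 had no site in either.

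Sites were rare next to the exon ends and most frequent 200 to 299 nt inside. In long internal exons, 34 of 3206 motifs (1.06%, 0.760 to 1.48) were sites where the nearer exon end was less than 25 nt away. The share was 1.91% at 25 to 49 nt, 3.36% at 50 to 74 nt and 5.15% at 75 to 99 nt. It was 6.96% at 100 to 149 nt, 8.51% at 150 to 199 nt and 9.18% (8.64 to 9.75) at 200 to 299 nt, where it was highest. Taken in a single step, 2.89% (2.62 to 3.19) of the 13186 motifs within 100 nt of an end and 7.01% (6.80 to 7.23) of the 53304 motifs farther inside were sites. The difference was 4.12 percentage points (3.75 to 4.47). Of 229 genes with at least 10 motifs on each side of the 100-nt limit, 117 had the higher share inside, 28 had it near the ends and 83 had no site at a motif. Neither the distance to an exon end nor the exon length was an input of the classifier, but the 21 nt it read can reach past an exon end. Motifs were read from the genome sequence, so those with the A at the very end of an exon take bases from the intron. The part of both in the low share next to the ends was not tested.

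**Figure D2:**
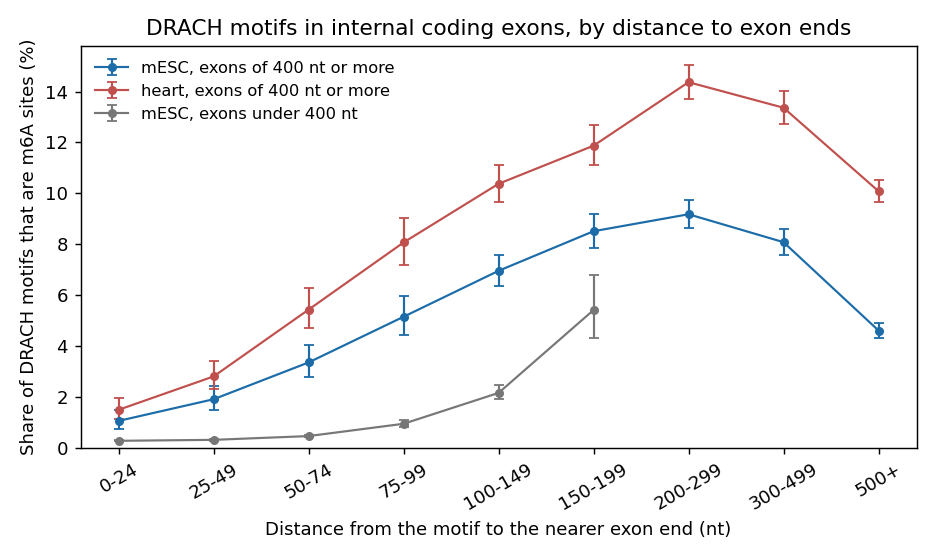
Share of DRACH motifs that were m6A sites (y axis, %) against the distance from the motif to the nearer exon end (x axis, nt), in internal coding exons of genes passing the RNA-seq filter. Points are shares and bars are 95% Wilson intervals. In long exons the mESC share goes from 1.06% in the first bin to 9.18% at 200 to 299 nt and 4.61% at 500 nt or more, and in heart it goes from 1.5% to 14.4% and 10.1% over the same bins.

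Both ends of the exon showed the low share. This was examined in exons of at least 1000 nt, where the opposite end is far away. From the 5′ end, the share was 1.32% (0.741 to 2.35) in the first 50 nt, 2.88% at 50 to 99 nt, 4.93% at 100 to 149 nt and 6.51% at 150 to 199 nt. From the 3′ end, it was 2.16% (1.40 to 3.31), 4.2%, 6.76% and 8.44% over the same distances. The value was higher on the 3′ side in each of these bins, but the intervals of both sides overlapped in each. Of the 4367 sites, 2091 were nearer to the 5′ end and 2275 nearer to the 3′ end of their exon.

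Deep inside the longest exons the share was lower again. At 300 to 499 nt from the nearer end it was 8.08% (7.59 to 8.61) and at 500 nt or more 4.61% (4.32 to 4.92). In exons of 1000 to 1999 nt, 7.90% of motifs were sites at 200 to 499 nt and 6.43% (5.78 to 7.14) farther inside. In exons of 2000 nt or more, the shares were 5.60% at 200 to 499 nt, 4.45% at 500 to 999 nt and 3.56% (3.17 to 3.99) beyond. Taken over all long exons, the share at 500 nt or more was below that at 200 to 499 nt in each quartile of WT expression, with 9.48% against 18.7% in the highest quartile.

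Short exons held few sites at the same distance from an end. At less than 25 nt, 0.279% of motifs were sites in internal exons under 400 nt, against 1.06% in long ones. At 50 to 74 nt the values were 0.465% and 3.36%, and at 100 to 149 nt 2.16% (1.90 to 2.45) and 6.96% (6.37 to 7.59). At 150 to 199 nt, which in the shorter class only exons of 300 nt or more can reach, they were 5.42% (4.31 to 6.79) and 8.51% (7.87 to 9.21). A motif in a shorter exon has its second end close by as well, so distance to the nearer end does not place the motifs of both classes alike.

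By exon length, the share was 0.219% in exons of up to 100 nt, 0.350% at 151 to 200 nt, 0.820% at 201 to 299 nt and 2.84% at 300 to 399 nt. It was 6.28% at 400 to 599 nt, 7.83% (7.43 to 8.24) at 600 to 999 nt, 6.63% at 1000 to 1999 nt and 4.26% (3.99 to 4.56) at 2000 nt or more. The share of exons with at least 1 site followed another order, with 34.1% of exons of 400 to 599 nt, 46.7% at 600 to 999 nt, 50.5% at 1000 to 1999 nt and 54.3% (48.2 to 60.3) at 2000 nt or more. The longest exons thus held a site most often but at the lowest density per motif of the long classes.

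The same pattern was seen in heart and in HEK293T cells. Since no RNA-seq counts of these samples were used here, genes with at least 1 site in their last exon stood in for the expressed genes of each list. This set is chosen by m6A itself and leaves out expressed genes without such a site. In genes with a last-exon site, 10.4% (10.0 to 10.8) of motifs in long internal exons were sites in mESCs, against 6.19% in all genes that passed the RNA-seq filter. The share was 14.1% (13.8 to 14.4) in heart and 11.8% (11.4 to 12.3) in HEK293T. In shorter internal exons the shares were 0.731%, 0.606% and 1.03%. Within 100 nt of the ends of long exons they were 4.84%, 6.39% and 5.49%, and farther inside 11.8%, 15.9% and 13.6%. The lists differ in depth and in the genes they hold, so their levels cannot be compared.

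**Figure D3:**
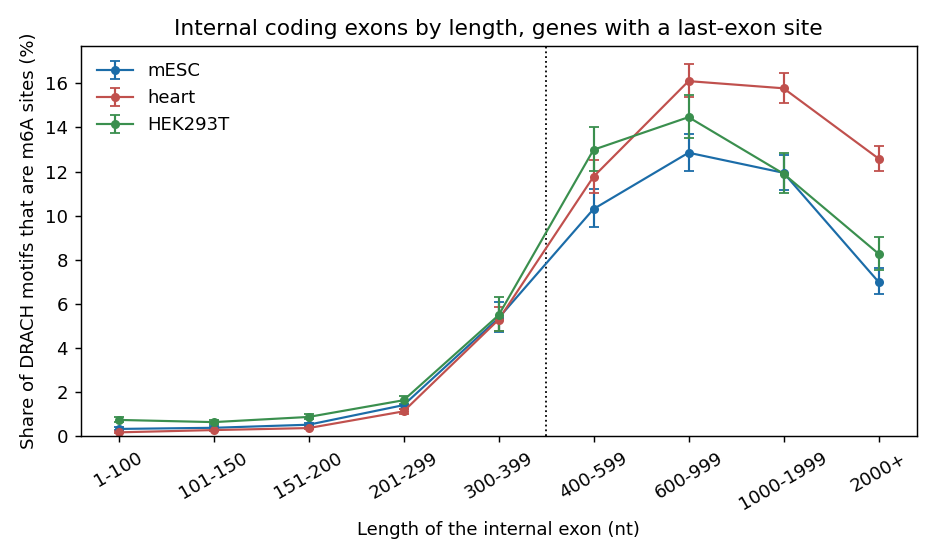
Share of DRACH motifs that were m6A sites (y axis, %) against the length of the internal exon (x axis, nt), in genes with at least 1 site in the last exon, for mESC, heart and HEK293T. Bars are 95% Wilson intervals, and the dotted line marks the limit of 400 nt. All 3 lists stay under 2% up to 299 nt and lie above 6% in each class from 400 nt on, with the highest share at 600 to 999 nt.

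At single positions, 2823 of the 4367 mESC sites (64.6%) were also sites in heart, which is 36.2% of the 7791 heart sites that met the same criteria. In genes with a heart site, 72.5% of the mESC sites were shared. The shared sites had a median score of 0.747, and those not shared in the same genes had 0.651. Exon 5 of Tnrc6c shared 23 of its 25 sites with heart, and exon 12 of Mki67 shared 11 of 20.

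The expression of the gene moved with the share of its motifs that were sites. In the lowest quartile of WT expression (up to 1.35 CPM, that is counts scaled to library size, per kb of exon), 0.185% of motifs in long exons were sites, and the share was 4.42%, 10.5% and 13% (12.4 to 13.6) in the next 3 quartiles. In shorter internal exons the 4 values were 0.00442%, 0.154%, 0.502% and 1.21%. Long exons thus had the higher share in every quartile. Motifs within 100 nt of the ends of long exons had the lower share in every quartile too, with 6.49% (5.54 to 7.59) against 14.5% (13.8 to 15.2) in the highest. A peak needs reads to be called, so a motif without a site in a gene of low expression cannot be told apart from an unmethylated one at this depth.

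**Figure D4:**
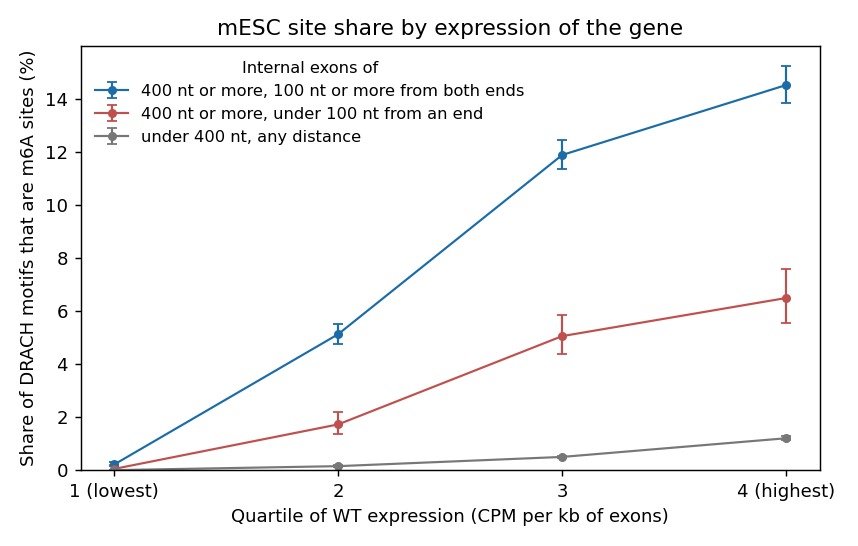
Share of DRACH motifs that were mESC sites (y axis, %) by quartile of the gene's WT expression (x axis, CPM per kb of exons), for motifs inside long internal exons, near their ends and in shorter internal exons. Bars are 95% Wilson intervals. The 3 classes keep their order in all quartiles, and in the highest quartile stand at 14.5%, 6.49% and 1.21%.

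Among motifs, GGACT was the most used, with 909 sites (20.8% of the set), followed by GAACT with 655 (15%), GGACA with 625 (14.3%) and AGACT with 575 (13.2%). In long internal exons 24.4% (23.1 to 25.8) of GGACT motifs were sites, 18.9% of GAACT, 14.2% of AGACT and 11.9% of GGACA, but 0.296% of AAACA and 1 of 1590 TAACA motifs. In shorter internal exons the share of GGACT was 3.02% (2.78 to 3.27) and of GGACA 0.517%. All 18 DRACH pentamers had the higher share in long exons, and 17 of 18 the higher share farther than 100 nt from the exon ends, AAACC being the exception with 0.138% near the ends and 0.133% inside. The classifier read the sequence, so the ranking of motifs is in part its own. The 246 sites outside DRACH stood mostly at GGACG (91), GTACT (44) and GGATT (25).

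Other features of position varied little. The share was 5.92% to 6.54% in each of 5 equal parts of the coding sequence from start to stop codon. It was 6.35% in the second exon of the transcript, 6.22% between the second and the next-to-last and 5.78% in the next-to-last exon. By codon, 5.79% of motifs with the A at the first position, 5.94% at the second and 7.21% (6.82 to 7.63) at the third were sites. For GGACT alone these values were 23.3%, 24.3% and 25.9% with overlapping intervals. Neighbouring sites of one exon lay 115 nt apart at the median (quartiles 45 and 240), and 143 of 2891 gaps (4.95%) were of 10 nt or less.

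Scores were close to those of other coding sites. The median m6Aboost score was 0.722 (quartiles 0.624 and 0.805), against 0.672 in shorter internal exons, 0.712 in the CDS of last exons and 0.795 in 3′ UTRs. The transcript region was an input of the classifier. The highest score, 0.991, belonged to a site in exon 20 of 29 of Trappc8, a subunit of a membrane trafficking complex, 180 nt before the 3′ end of that exon of 443 nt. The lowest, 0.50, was in exon 2 of Nufip2, an RNA-binding protein, at a motif that is otherwise among the frequent ones.
Nufip2, chr11:77691666-77691686, plus strand: cctgaagcAGACTgtaaagac
This position lay 134 nt from the start of an exon of 1713 nt and was not in the heart list. Along the distance to the exon end the median score of DRACH sites was 0.692 in the first 25 nt and between 0.696 and 0.756 in the other bins. Of the genes that the study discusses by name, Zfp710 held 5 sites and Trim27 held 2. In Zfp710 the study tested a DRACH peak that it found unmodified. The coordinate it prints lies outside the gene, so whether that peak is among these 5 cannot be told. In Trim27 it tested a GGATT in the last exon, whereas the 2 sites here lay in exon 2 of 9, at AGACT and AGACC. One Zfp710 site, at GGACT with a score of 0.885, lay 44 nt from the start of its exon of 1492 nt. The other Zfp710 sites lay 181 to 559 nt from it.

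Sites were counted in lists of genes grouped by function. Of the 2650 tested genes with a long internal coding exon, 1253 (47.3%) held a site, and in the lists this share ran from 75% to 88%. The lists were chosen with earlier results of these data known, so their higher share cannot be read as a link to function. Of 72 chromatin regulators, 57 had a long internal coding exon and 47 held sites, 258 in all, at 8.33% (7.38 to 9.39) of their motifs. Kmt2d, Spen, Nsd1 (14 sites), Kmt2b (12) and Kdm3b (11) led this list. Nsd1, Kmt2b and Kdm3b are enzymes that write or erase histone methylation. Of 35 DNA repair genes, 22 held 120 sites at 7.00% (5.86 to 8.33) of their motifs, with 16 in the mismatch repair gene Msh6, all in its exon 4 of 2536 nt, and 10 each in Rif1 and Trp53bp1, which act on double-strand breaks. Of 53 stem cell and zinc finger transcription factors, 28 held 175 sites at 7.29% (6.31 to 8.41) of their motifs. Of 54 genes of mitosis and the centrosome, 25 held 151 sites at 7.71% (6.59 to 9.01) of their motifs, among them Pcnt (16) and Cep192 (14), scaffold proteins of the centrosome. Of 59 RNA-binding and RNA-processing genes, 23 held 190 sites at 13.3% (11.6 to 15.3) of their motifs, with Ranbp2 (16), Scaf1 (15), Srrm2 (14) and Dicer1 (11) after Tnrc6c and Son. These shares move with expression as described above and stand beside 6.19% (6.01 to 6.38) for all genes, which lies within the interval of the DNA repair list and just below that of the stem cell and zinc finger list.

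The m6A machinery also held such sites. Of 24 genes of this list, 8 had a long internal coding exon and 6 of them held 42 sites, at 40 of 262 motifs (15.3%, 11.4 to 20.1). The cytoplasmic readers Ythdf1, Ythdf2 and Ythdf3 are paralogs that hold most of their coding sequence in a single exon, exon 4, of 1521, 1584 and 1599 nt. Each of them had 9 sites there. Virma, a subunit of the methyltransferase complex, had 9 sites, Zc3h13, another subunit, had 4, and the demethylase Fto had 2.

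RNA levels of genes with sites were compared between Mettl3 KO and WT mESCs, to see whether their mRNA changed where the methyltransferase was lost. Counts of Mettl3 itself were not lost in the KO, with 26.4, 26.6 and 28.9 CPM in WT and 18.4, 22.6 and 16.9 in KO (edgeR adjusted p = 0.0134), and a count per gene does not show whether the deleted part was read. In bulk RNA, a lower level in all cells and expression in fewer cells cannot be told apart. With the replicate number as a block, which pairs the libraries, Mettl3 passed (edgeR adjusted p = 0.00281). Pluripotency markers were present in all 6 libraries, the 8 genes summing to 4309 to 4613 CPM in WT and 3110 to 3180 in KO. Of these, Dppa5a and Tdgf1 fell (log2 fold changes -1.68 and -1.98), while Esrrb was at 527 ± 36.3 and 709 ± 29.1 CPM (SD, n = 3) and passed only with the block (edgeR adjusted p = 0.0106 without it and 0.00191 with it). Of 6 feeder fibroblast markers, 3 were below the count filter and the others summed to 4.11 to 6.04 CPM in WT and 9.27 to 9.65 CPM in KO, with Thy1 higher (log2 fold change 1.19, edgeR adjusted p = 0.00206). The part of these differences in the results below was not tested. Y-linked Eif2s3y, Kdm5d, Ddx3y and Uty had 0 to 2 counts in each WT library and 774 to 1983 in each KO library. The lines thus differ in more than Mettl3, and the effect of the knockout and of the line cannot be told apart.

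Genes with sites in long internal exons were more often higher than lower in the KO. With the threshold at an adjusted p of 0.01 in the quasi-likelihood test of edgeR, 425 of the 1253 tested genes with such sites (33.9%) were called, against 29.7% of all genes. Of these, 315 (25.1%) were higher in KO, where 17.1% of all genes were, and 110 (8.78%) were lower, where 12.6% of all genes were. With the replicate block 416 were higher and 177 lower. Under the block 70.2% of the called genes with sites were higher, against 54.0% of all genes called. In 713 genes the 3 libraries of one line lay all above those of the other (56.9%), close to the 56.1% of all genes. The median log2 fold change was 0.14 over these genes and -0.02 over all genes. The 58 genes with 10 or more sites had a median of 0.23, with 14 called higher (24.1%) and 4 lower (6.90%). These shares are close to the 25.1% and 8.78% of all genes with sites.

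This lean was also seen where long exons held no site. Of 1359 tested genes that had a long internal coding exon with a DRACH motif but no site, 433 (31.9%) were called higher in KO and 99 (7.28%) lower, with a median log2 fold change of 0.38. The sites come from WT data and a peak needs reads, so genes low in WT enter this group more readily. How far this bears on its lean was not tested. Of 5087 genes with sites only elsewhere, 800 (15.7%) were higher and 791 (15.5%) lower. When libraries were scaled by their size alone, the median of all genes moved by 0.10 on the log2 scale. This gave 360 higher and 49 lower genes with sites, so that 88.0% of the called genes were higher, against 74.1%. Relative to all genes the median of genes with sites was 0.16 under both scalings. On chromosome 8, 20 of 77 genes with sites were called lower and 8 higher. Elsewhere 90 of 1176 were lower and 307 higher. The calls over all genes of chromosome 8 are not given here. Whether genes with sites differ there from the other genes of that chromosome was not tested. Without WT replicate 1 the called genes with sites were 270 (of 3108 called in all), without KO replicate 1 they were 247 (of 2761), and without KO replicate 3 they were 284 (of 3109).

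Of the 10 genes with the most sites, 3 passed the test and 3 more passed with the replicate block. Of all 15731 genes tested, 4669 (29.7%) passed without the block and 6837 with it, so the first count is near the share of all genes. Ahdc1 was at 67.1, 69.6 and 70.1 CPM in WT and at 141, 170 and 130 CPM in KO, so that all KO libraries lay above all WT libraries. Its log2 fold change was 1.09 ± 0.12 (SE, n = 3 per group, adjusted p = 8.37e-05 by edgeR). Mga rose by a log2 fold change of 0.53 ± 0.11 (edgeR adjusted p = 0.00346), from 435 ± 28.2 to 628 ± 39.4 CPM (SD, n = 3). Cenpf fell from 319 ± 3.32 to 239 ± 15 CPM (log2 fold change -0.42 ± 0.10, edgeR adjusted p = 0.00727). Kmt2d had 221, 227 and 201 CPM in the WT libraries, against 249, 347 and 233 CPM in KO, a difference that missed the threshold (edgeR adjusted p = 0.0784, and 0.0131 with the block) although the libraries did not overlap. Tnrc6c, with its 25 sites in one exon, was at 85.2 ± 12.5 and 60.6 ± 18.6 CPM with overlapping libraries (edgeR adjusted p = 0.0599). Within each pair of equal replicate number Tnrc6c was lower in KO, with 75.1 and 51.1, 99.2 and 82.0, and 81.1 and 48.5 CPM, and it passed with the block (log2 fold change -0.52 ± 0.11, edgeR adjusted p = 0.000510). Spen, with 80.3 and 117, 106 and 136, and 75.7 and 94.1 CPM in the pairs of WT and KO, was higher in KO in each (edgeR adjusted p = 0.0636 without the block and 0.00178 with it). Son went the same way (0.0341 and 0.00808 in edgeR). Tcf20 (0.0545 and 0.0109) and Fat1 (0.0836 and 0.0121) were higher in KO in each pair but missed the threshold in both fits of edgeR, as did Mki67 (0.927 and 0.940).

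**Figure D5:**
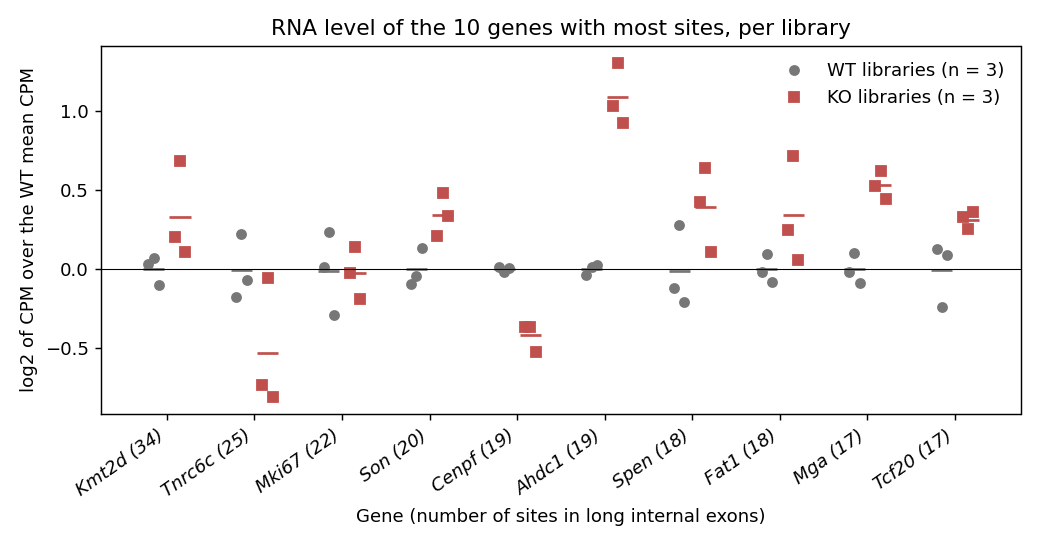
RNA level of the 10 genes with the most sites in long internal exons, as log2 of the CPM over the WT mean CPM (y axis), for each WT (grey circles) and KO library (red squares), with group means as short lines. Kmt2d, Son, Ahdc1, Mga and Tcf20 lie higher and Cenpf lower in all 3 KO libraries, while WT and KO overlap in Tnrc6c, Mki67, Spen and Fat1.

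In the m6A machinery, 4 of the 6 genes with sites (66.7%) rose in KO and 1 (16.7%) fell, with the same counts under the block. Of all genes with sites 25.1% were higher and 8.78% lower, and of all genes tested 17.1% and 12.6%. Ythdf2 was at 82.9, 77.8 and 89.2 CPM in WT and at 201, 214 and 204 CPM in KO, the greatest change among these 6 genes (log2 fold change 1.31 ± 0.10, SE, edgeR adjusted p = 1.35e-05). Virma (0.90 ± 0.11), Ythdf1 (0.85 ± 0.11) and Zc3h13 (0.55 ± 0.13) rose as well, and Fto, which lies on chromosome 8, fell (-0.41 ± 0.10). Ythdf3, with the same number of sites as its paralogs, had 132 ± 4.41 CPM in WT against 157 ± 1.42 CPM in KO (log2 fold change 0.26, edgeR adjusted p = 0.0459), which missed the threshold. The counts of the other lists stand beside 25.1% higher and 8.78% lower for all genes with sites. With the block, 416 of these 1253 genes were higher and 177 lower. Of the 47 chromatin regulators with sites 10 (21.3%) rose and 1 (2.13%) fell, with a median log2 fold change of 0.14, and with the block 13 rose and 5 fell. Of the 22 DNA repair genes 4 (18.2%) rose and none fell (median 0.16), which for the rise is near the 17.1% of all genes. With the block 5 of them rose and none fell. Nsd1 rose from 397 ± 48 to 655 ± 91.7 CPM (SD, n = 3, edgeR adjusted p = 0.00206) and Trp53bp1 from 84.5 ± 8.46 to 124 ± 5.81 CPM (edgeR adjusted p = 0.00211), whereas Msh6, with 16 sites in one exon, was at 756 ± 37.6 and 817 ± 42.1 CPM (edgeR adjusted p = 0.439). Of the 28 stem cell and zinc finger factors 12 (42.9%) rose and 1 (3.57%) fell (median 0.45), and with the block 17 rose and 1 fell. Zfp462, a zinc finger protein with 10 sites, went from 169 ± 10.2 to 283 ± 27.2 CPM (SD, n = 3, edgeR adjusted p = 0.000497). Of the 25 mitosis and centrosome genes 1 (4%) rose and 8 (32%) fell (median -0.21), and with the block 3 rose and 10 fell. Cep192 went from 264 ± 17.6 to 164 ± 10.5 CPM (SD, n = 3, edgeR adjusted p = 0.000581). Of the 23 RNA-binding genes none rose and 3 (13%) fell (median -0.06), the latter near the 12.6% of all genes, and with the block 3 rose and 5 fell. All these medians stand beside -0.02 for all genes, and the lists were chosen by function with earlier results of these data known.

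The 4 highest and the 4 lowest log2 fold changes were in genes with 1 to 8 sites. Kif26a, an atypical kinesin with 8 sites, was at 23.6, 22.4 and 14.6 CPM in WT and at 83.2, 117 and 89.1 CPM in KO. AI661453 (1 site), Pramef12 (2) and Faap100 (4), a protein of the Fanconi anaemia core complex, had log2 fold changes of 2.00, 1.95 and 1.92. At the other end, Klf12, a transcriptional repressor with 2 sites, was at 16.0, 12.7 and 12.4 CPM in WT and at 1.91, 2.26 and 1.92 CPM in KO. Pmel (1 site), a protein of melanosome fibrils, Tuba3a (1), an alpha-tubulin, and Tex14 (3), a protein of germ cell bridges, had log2 fold changes of -2.25, -1.98 and -1.82. In all 8 genes the libraries of both lines were apart, by the rule that chose them.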

How the data were processed

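No reads were mapped again. The deposited score of a mESC or HEK293T site is the m6Aboost prediction, which the authors computed after mapping miCLIP2 reads with STAR 2.7.3a (unique reads only), removing duplicates with UMI-tools 1.0.0, calling peaks with PureCLIP in each replicate and keeping those found in at least 2 replicates (heart: 1 library). The scale of the heart score is not stated, and only heart positions were used. The gene counts were deposited by the authors as whole numbers, made with STAR 2.6.1b and HTSeq 0.12.4 on the reverse strand of GRCm38 genes. Their lines that name no gene were left out: 17.6% to 22.6% of all lines' counts were in no feature, 13.9% to 15.2% not unique, 3.76% to 4.67% not aligned and 0.813% to 0.970% ambiguous. Tool versions are from the submitters' processing notes and the paper.

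Sites and DRACH motifs were placed in the longest coding transcript (by summed exon length) of GENCODE M21 on GRCm38 or GENCODE 44 on GRCh38. The authors used M23 and 31. Positions shared by exons of more than one gene were dropped. Distances are counted in nt from the A to the first or last base of the exon. Motifs were read from the genome sequence, so a motif with its A at the very end of an exon takes bases from the intron. Such motifs were kept in the denominators of long and shorter exons, and the shares without them were not computed. Of the mESC sites, 1385 were in no exon of such a transcript or shared by several genes, and 20.3% of the sites described lie in a first or last exon of another coding transcript. Shares have 95% Wilson intervals. Expression quartiles use the mean WT CPM per kb of all exons of a gene, over genes with motifs.

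KO was tested against WT with edgeR 4.0.16 in R 4.3.3 (glmQLFTest after filterByExpr and TMM, without covariates), with Benjamini-Hochberg adjustment over 15731 genes. The SE is the log2 fold change over the root of F. CPM are TMM-scaled. Alternatives were DESeq2 1.42.0, other scaling, filter and threshold, leaving out each replicate, and other limits of exon length, distance, score, motif, transcript and gene set. Both steps were tested on simulated data. Replicate numbers of the RNA-seq labels were checked for pairing: deviations from the group means correlated at 0.122, 0.464 and 0.303 for equal numbers, so they were treated as paired in an alternative. WT replicate 3 and KO replicate 1 also correlated, at 0.110.

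Named are Mettl3, the 10 genes and 5 exons with most sites, the highest and lowest score, genes the study names, up to 6 genes per list by number of sites, and the 4 highest and 4 lowest log2 fold changes among called genes whose counts averaged 100 or more and whose ranges were apart. Klf4, Esrrb, Kifc1 and Kifc5b were added after their values were seen. The members and lists were chosen with earlier results of these data known. The KO miCLIP2 samples and the heart lists of lower input were not used here.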

Additional observations from a re-analysis of the deposited data

How the results depend on the processing

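Both differences in share and the median log2 fold change of genes with sites stayed positive under every alternative run. The number of sites was 4709, 3943 and 2089 with a minimum exon length of 300, 500 and 1000 nt and 1859 with scores at or above the median of the list. The share of DRACH motifs that were sites in long internal exons (6.19%), its difference to shorter exons (5.74 points) and its difference between motifs beyond and within 100 nt of exon ends (4.12 points) moved as follows. They were 5.69%, 5.33 and 4.26 points (the last within its interval) for exons of at least 300 nt, 5.41%, 4.42 and 3.03 for 1000 nt, 2.72%, 2.57 and 1.88 with higher-scoring sites only, 7.31%, 6.75 and 4.65 with RRACH, 10.4%, 9.66 and 6.92 in genes with a last-exon site, and 4.69%, 4.34 and 3.14 in all protein-coding genes. A distance limit of 50, 150 or 200 nt gave 5.21, 2.76 and 1.44 points. The longest CDS, positions internal in every coding transcript (3482 sites) and leaving out the 10 genes with most sites kept all 3 within their intervals.

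Of the 4669 genes called, 425 had sites in long internal exons. Leaving out each replicate gave 2761 to 5412 and 247 to 476. With the replicate block (paired fit) 6837 and 593 were called, and all 425 remained. Of the 10 genes with most sites it added Tnrc6c, Son and Spen. An adjusted p of 0.05 gave 7336 and 603 genes, DESeq2 5481 and 494, and no filter 6406 and 512. Of 618 genes with 3 or more sites 211 (34.1%) were called, and of 434 with sites in exons of at least 1000 nt 156 (35.9%). Both shares are near the 33.9% of all genes with sites, beside 29.7% of all genes tested. The median log2 fold change of genes with sites was 0.25 by library size alone and 0.11 to 0.18 under the other alternatives. The site lists give no depth per site, and a motif without a site in a weakly expressed gene says little.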

Other observations

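Some long exons of well expressed genes held many DRACH motifs and no site. In the highest quartile of WT expression, exon 36 of 98 of Macf1, a large linker of microtubules and actin, had 140 DRACH motifs in 5331 nt (chr4:123471007-123476337) and none of the listed sites. Exon 3 of Naca had 108 motifs in 5916 nt (chr10:128039171-128045086), exon 3 of Rtn3 had 70 in 2124 nt (chr19:7456300-7458423), and exon 16 of Prrc2b had 45 in 2061 nt (chr2:32212887-32214947). These exons were picked after their values were seen. Gene counts do not show whether the long exon itself was included in the mRNA of these cells, and this was not tested.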
